A study of Mus musculus with 2 samples.

Results

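The plakins other than epiplakin were followed here through the cell types of mouse skin. Members were taken by name and by no measured value: Dsp, Ppl, Evpl, Plec, Dst and Macf1, which make 6 of the 19046 non-mitochondrial genes counted. The libraries came from dorsal skin punches of 1 wildtype C57BL/6J mouse and 1 Eppk1 knockout mouse, in which the epiplakin gene Eppk1 is disrupted and which had been backcrossed into C57BL/6J. The mice received no treatment, and their ages are not given in the sources used here. Dissociated whole skin was fixed and profiled with the 10x Genomics Flex assay, in which probe pairs hybridise to chosen stretches of each transcript and each probe pair ligated in a cell is counted as a unique molecular identifier (UMI). With 1 mouse per genotype there is no replicate error, so no p-value is given, and genotype, mouse and probe barcode cannot be told apart.

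Plakins are giant cytolinkers that tie intermediate filaments to junctions and, in some members, to actin and microtubules. Desmoplakin (Dsp) anchors keratin to desmosomes, the junctions that hold keratinocytes together. Periplakin (Ppl) and envoplakin (Evpl) pair with each other and are built early into the cornified envelope, the crosslinked shell of the dying keratinocyte. Plectin (Plec) and dystonin (Dst, whose epithelial form is BP230) connect keratin to hemidesmosomes, which fasten basal cells to the basement membrane. Macf1 and the long forms of Dst are spectraplakins, which bind both actin and microtubules.

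The members lie apart in the genome (GRCm38, GENCODE M21). Dsp is at chr13:38151294-38198577 on the plus strand, Ppl at chr16:5086291-5132421 on the minus strand and Evpl at chr11:116220559-116238077 on the minus strand. Plec is at chr15:76170974-76232574, Dst at chr1:33908225-34308661 and Macf1 at chr4:123349633-123684360, on the minus, plus and minus strand. Plec is the only member near the deleted gene: 50778 bases separate it from Eppk1 on chromosome 15. Plec, Dst and Macf1 have 21, 14 and 15 annotated coding transcripts, and the deposited counts sum all probes of a gene, so a count says nothing of which isoform was present.

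The wildtype library held 9179 cells and 77638793 UMIs and the Eppk1 knockout library 8811 cells and 65118304 UMIs, and 8875 and 8617 cells passed the filters. Cells were clustered and the clusters named by marker genes, giving 9 classes: basal-like, spinous-like, granular-like and follicle-like keratinocytes, sebaceous-like, fibroblast-like, endothelial-like, macrophage-like and T cell-like cells, written from here on without the suffix. The classes held 60 to 2799 cells per library. Clusters were named by these same markers, so the share of markers seen describes the classes and is no separate check of the labels. In 8 of the 9 classes most markers had a UMI in at least 25% of cells. These were at least 22 of 29 follicle markers, 7 of 9 sebaceous markers and all or all but 1 marker of each other class. In the endothelial class only 3 of 8 markers reached that share in wildtype cells, against 8 of 8 in knockout cells, and 70 of its 105 wildtype and 41 of its 60 knockout cells became unnamed when clustered more finely. Eppk1 itself was lower in the library labelled Eppk1 knockout in each of the 9 classes, from 1207 to 66.2 counts scaled to 1000000 UMIs (CPM) in basal cells and from 4519 to 2978 CPM in granular cells. The exception was a small granular cluster, in which Eppk1 stood at 104 CPM in wildtype and 528 CPM in knockout cells. Where its probes lie relative to the deleted part is not given in the sources used here.

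Levels are CPM: the UMIs of a gene summed over the cells of a class, divided by all UMIs of that class and scaled to 1000000. Values are given as wildtype and then Eppk1 knockout. Because each gene has its own probes, CPM was compared between classes for each gene and never between genes, and classes were called apart only where the values of the libraries did not overlap. Intervals are exact, at 95%, and cover counting error only.

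Dsp was a keratinocyte transcript, highest in the spinous layer. It reached 7321 and 6968 CPM in spinous cells, 5458 and 5355 CPM in granular cells, 4758 and 4912 CPM in follicle keratinocytes, and 2986 and 3344 CPM in basal cells. These 4 levels were apart from one another in both libraries. Outside the keratinocytes Dsp was much lower, at 860 and 837 CPM in sebaceous cells, 729 and 828 CPM in T cells and 697 and 694 CPM in endothelial cells. It was lowest in fibroblasts, at 236 and 178 CPM, and macrophages, at 200 and 200 CPM, which were not apart. Keratinocytes held 93.0% of all Dsp UMIs in the wildtype and 91.2% in the knockout library, while they held 58.9% and 45.7% of all UMIs.

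**Figure D1:**
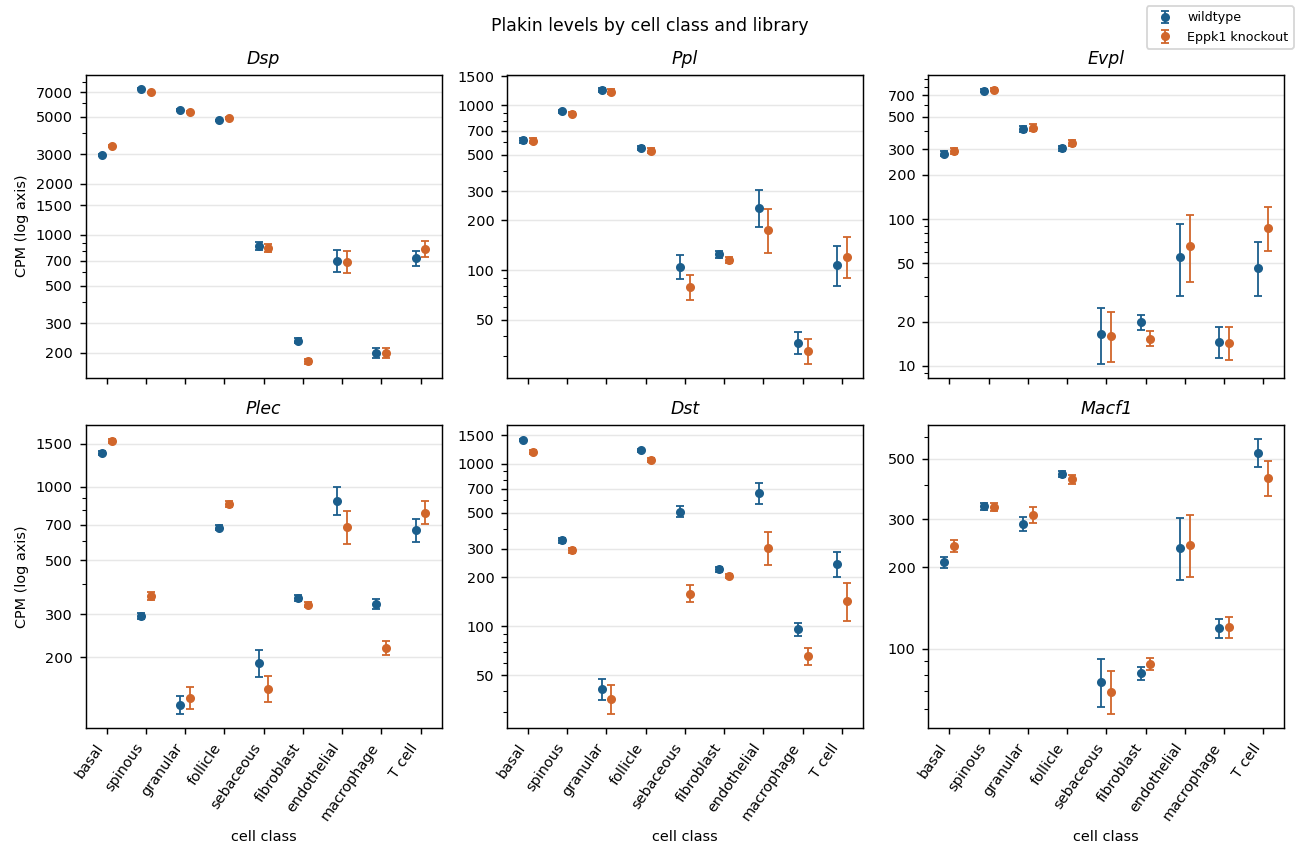
Level of each plakin in CPM (log axis, a scale of its own in each panel) in the 9 cell classes, with the wildtype library in blue and the Eppk1 knockout library in orange; bars are exact 95% counting intervals. Dsp, Ppl and Evpl sit highest in spinous or granular cells, Plec and Dst in basal cells and at their lowest in granular cells, and Macf1 in T cells and follicle keratinocytes.

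Ppl was the member with its top in the granular layer. Its levels descended from 1235 and 1212 CPM in granular cells through 918 and 888 CPM in spinous cells and 612 and 611 CPM in basal cells to 549 and 532 CPM in follicle keratinocytes, each apart from the next. Endothelial cells gave 239 and 175 CPM. Fibroblasts, at 125 and 115 CPM, and T cells, at 107 and 121 CPM, were not apart. Sebaceous cells stood at 104 and 78.5 CPM, and macrophages were lowest, at 36.3 and 32.1 CPM.

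Evpl, the partner of Ppl, peaked a layer earlier. It stood at 751 and 761 CPM in spinous cells and at 413 and 421 CPM in granular cells. Follicle keratinocytes followed at 304 and 332 CPM and basal cells at 279 and 292 CPM, and these 4 classes were apart. In the remaining classes Evpl was far lower, from 46.7 and 86.9 CPM in T cells down to 14.5 and 14.4 CPM in macrophages.

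Plec was a basal transcript with a wide spread over other cell types. Its level was 1376 and 1543 CPM in basal cells, 296 and 358 CPM in spinous cells and 128 and 136 CPM in granular cells, the lowest of the 9 classes. Endothelial cells, at 878 and 682 CPM, follicle keratinocytes, at 681 and 847 CPM, and T cells, at 663 and 785 CPM, came next and were not apart. Fibroblasts, at 350 and 329 CPM, spinous cells and macrophages, at 332 and 219 CPM, were likewise not apart. Sebaceous cells gave 190 and 149 CPM.

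Dst shared the basal peak and had the steepest gradient of the members through the epidermal layers. Basal cells, at 1400 and 1180 CPM, and follicle keratinocytes, at 1210 and 1054 CPM, were not apart. Endothelial cells followed at 658 and 302 CPM, sebaceous cells at 509 and 159 CPM and spinous cells at 338 and 293 CPM, and these 3 classes overlapped. Fibroblasts gave 224 and 204 CPM, T cells 241 and 142 CPM, macrophages 95.9 and 65.5 CPM, and granular cells only 41.1 and 35.6 CPM. Granular Dst thus lay at 3.0% of its basal level, as the mean of both libraries.

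Macf1 was the 1 member with a class outside the keratinocytes first in its order. T cells, at 527 and 425 CPM, and follicle keratinocytes, at 440 and 420 CPM, were highest and not apart. Spinous cells followed at 335 and 333 CPM and granular cells at 289 and 310 CPM. Basal cells, at 208 and 239 CPM, were not apart from endothelial cells, at 235 and 241 CPM. Macrophages at 119 and 120 CPM, fibroblasts at 81.3 and 88.2 CPM and sebaceous cells at 75.4 and 69.3 CPM made the low end. Keratinocytes held 79.6% and 70.6% of all Macf1 UMIs and 71.1% and 66.1% of those of Plec, a smaller share than for Dst (83.2% and 76.0%), Ppl (89.3% and 84.5%) or Evpl (94.0% and 92.1%). Macf1 was also the gene whose top class depended most on the processing, with follicle keratinocytes or granular cells in place of T cells in 1 or both libraries under several alternatives.

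The share of cells with at least 1 UMI was also taken after thinning to 1000 UMIs, with shallower cells left out. Left out were 87 and 67 basal cells, 49 and 86 macrophages, 30 and 25 T cells and 37 and 56 fibroblasts. For Dsp and Macf1 in these classes the shares ran in the same direction as CPM. Dsp was seen in 93.0% and 96.4% of basal cells, and in 10.8% and 7.45% of macrophages, a class not known to make desmosomes. Unthinned, these shares were 99.1% and 99.3% for basal cells, with median depths of 4255 and 4044 UMIs, and 31.2% and 19.2% for macrophages, with 7528 and 4831 UMIs. Macf1 was seen in 37.9% and 33.3% of thinned T cells and in 6.86% and 9.44% of thinned fibroblasts, although T cells were the shallower class, with median depths of 1850 and 1712 against 6990 and 6280 UMIs. Unthinned, the Macf1 shares were 60.0% and 49.7% of T cells and 38.5% and 39.0% of fibroblasts.

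RefSeq gave promoter sequence for 3 of the 6 members, Dsp, Dst and Macf1. Dsp and Dst are shown because they run in opposite directions through the epidermis, and Dst by both of its listed starts because its transcripts begin at several places. Each stretch is the 250 bases upstream of a start, 5′ to 3′ on the plus strand of GRCm38.p6, for Dsp chr13:38151044-38151293, for the upstream Dst start chr1:34011345-34011594 and for the downstream Dst start chr1:34160010-34160259. Capitals mark matches to the GC box, GGGCGG on either strand.
Dsp: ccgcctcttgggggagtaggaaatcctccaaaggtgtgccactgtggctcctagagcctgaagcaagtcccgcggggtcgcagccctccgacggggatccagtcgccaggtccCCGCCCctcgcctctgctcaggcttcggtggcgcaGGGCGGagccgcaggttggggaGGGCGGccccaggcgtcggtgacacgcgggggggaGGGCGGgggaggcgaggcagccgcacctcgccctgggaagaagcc
Dst upstream start: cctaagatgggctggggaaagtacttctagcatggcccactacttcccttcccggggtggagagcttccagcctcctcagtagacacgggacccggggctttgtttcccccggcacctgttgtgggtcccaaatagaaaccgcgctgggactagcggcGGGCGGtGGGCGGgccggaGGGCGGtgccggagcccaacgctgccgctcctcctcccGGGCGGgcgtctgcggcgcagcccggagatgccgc
Dst downstream start: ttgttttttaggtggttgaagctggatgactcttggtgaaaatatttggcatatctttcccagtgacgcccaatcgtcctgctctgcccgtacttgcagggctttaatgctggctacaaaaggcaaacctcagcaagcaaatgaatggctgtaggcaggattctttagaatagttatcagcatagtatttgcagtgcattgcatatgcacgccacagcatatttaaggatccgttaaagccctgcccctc
The Dsp stretch was 72.4% G or C and held 4 GC boxes, and the upstream Dst stretch was 68.8% G or C and also held 4. The downstream Dst stretch was 45.2% G or C and held 0, as did the Macf1 stretch. A GC box was present in 32.7% of 32851 RefSeq promoters of this length. The downstream Dst start lies within 100 bases of the start of 3 coding transcripts in GENCODE, and the upstream start of 0, yet a gene-level count cannot show which start was in use. The E-box CANNTG matched 0 times in the Dsp stretch, 1 time in the upstream and 2 times in the downstream Dst stretch and 3 times in that of Macf1, against 66.2% of promoters with a match. The TEAD motif GGAATG matched in Macf1 alone (12.6% of promoters), the KLF-type motif GGGTG in the upstream Dst stretch alone (52.0%), and the AP-1 motif TGANTCA (6.75%) and the TATA box TATAAA (12.4%) in none of the 4. These are matches of letters in a window and were not tied to binding or to the levels above.

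Within the epidermis the members went separate ways, and both libraries showed the same directions. Steps are log2 ratios of CPM between layers of the same library with 0.5 UMI added, and a step was called where it was at least 1 in size, a 2-fold difference, in both libraries. From basal to spinous cells Dsp was higher by 1.29 and 1.06 and Evpl by 1.43 and 1.38, while Plec stood at -2.22 and -2.11 and Dst at -2.05 and -2.01. That made 2 members called higher, where 9.86% of all genes were, and 2 called lower, where 12.0% were. Ppl, at 0.58 and 0.54, and Macf1, at 0.68 and 0.48, leaned upward without passing. The hemidesmosomal members were thus much lower at the step at which the desmosomal member was higher.

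From spinous to granular cells, the last living layer, Plec and Dst were lower again, by -1.21 and -1.39 and by -3.03 and -3.04. They were the 2 members called lower, among 33.2% of all genes, and 0 members were called higher, where 9.94% of all genes were. Evpl, at -0.86 and -0.85, and Dsp, at -0.42 and -0.38, leaned downward, whereas Ppl leaned upward at 0.43 and 0.45. Macf1 was at -0.21 and -0.10. The median over all genes was itself -0.63 and -0.76 at this step. Cells above the cap of 45000 UMIs were left out here. Those that gated as spinous held Dsp at 8529 and 8382 CPM and Evpl at 859 and 949 CPM. Those that gated as granular held Dsp at 8221 and 8063 CPM and Evpl at 765 and 762 CPM. The downward leaning of Dsp and Evpl thus applies in its size to the kept cells only.

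Measured from basal to granular cells directly, Dst stood at -5.09 (interval -5.32 to -4.87) and -5.04 (-5.36 to -4.76), and Plec at -3.43 (-3.56 to -3.31) and -3.50 (-3.66 to -3.35). These 2 were called lower, as were 40.7% of all genes. Called higher were 0 members, where 15.9% of all genes were. Ppl came nearest, at 1.01 and 0.99, ahead of Dsp at 0.87 and 0.68, Evpl at 0.56 and 0.53 and Macf1 at 0.47 and 0.38. The median gene lay at -0.71 and -0.84, so Dsp, Ppl, Evpl and Macf1 were above it and Plec and Dst well under it. With TMM scaling, which sets the typical gene level between classes, Dsp became 1.32 and 1.21, Ppl 1.46 and 1.52 and Evpl 1.01 and 1.06, and 3 members were called higher. Under this scaling Dsp was highest in spinous cells of the wildtype and in granular cells of the knockout library. Without the cell filters the directions of Evpl (-0.87 and -1.29) and Macf1 (-0.86 and -1.10) turned, as did that of Dsp in the knockout library (0.11 and -0.38). The granular class under that setting was a single cluster of 119 and 74 cells led by Lce genes. Cells above the UMI cap were left out of the main steps, among them 171 and 117 that gated as granular. They held Dsp at 8221 and 8063 CPM and Evpl at 765 and 762 CPM. In basal cells Dsp was 2986 and 3344 CPM and Evpl 279 and 292 CPM. The count of 0 members called higher thus applies to the kept cells only.

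**Figure D2:**
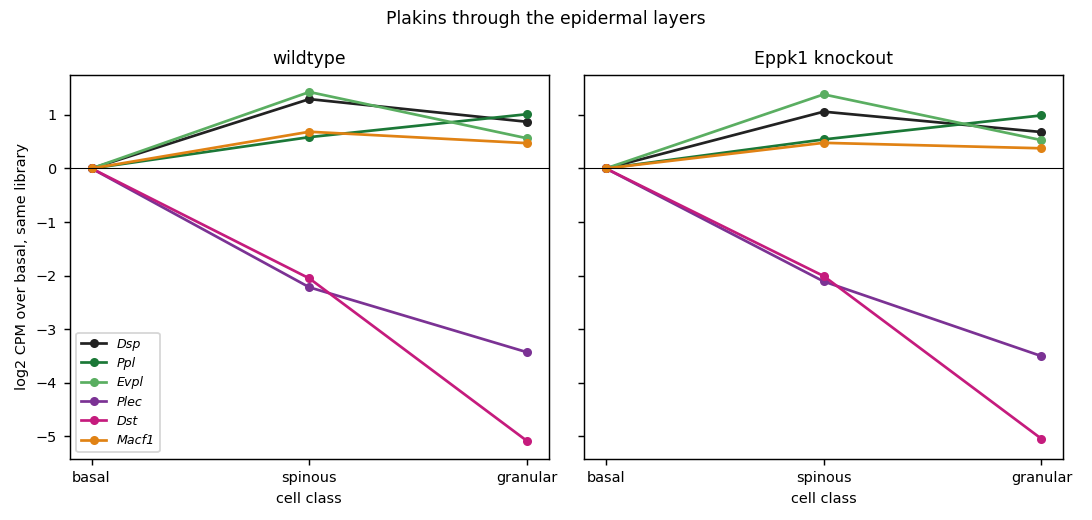
Each plakin in spinous and granular cells as log2 of its CPM over that in basal cells of the same library (vertical axis), for wildtype and Eppk1 knockout. Dsp, Ppl, Evpl and Macf1 lie above the basal level in both later layers (without the cell filters granular Evpl, Macf1 and knockout Dsp lie under it), while Plec and Dst descend to -3.43 and -5.09 in wildtype granular cells and to -3.50 and -5.04 in knockout granular cells.

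The layers were not uniform inside. The larger granular cluster (166 and 105 cells), in which filaggrin (Flg) and loricrin (Lor) stood highest by fold over the other cell classes, held Dsp at 6843 and 6898 CPM, Ppl at 1468 and 1463 CPM and Evpl at 520 and 545 CPM. The smaller cluster (49 and 35 cells), led by late cornified envelope (Lce) genes, held Dsp at only 366 and 439 CPM and Evpl at 16.9 and 24.6 CPM, but Ppl still at 379 and 414 CPM. Ppl was thus less far under its level in the larger cluster than its partner was. Without the smaller cluster, an alternative added after the values were seen, Dsp at 1.2 and 1.04 and Ppl at 1.26 and 1.26 passed the 2-fold rule for granular over basal cells.

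Dst divided the spinous clusters too. The spinous cluster with the most cells (788 and 721) had 653 and 484 CPM, the cluster with Sprr genes among its leading genes 254 and 198 CPM, and the deepest cluster, led by Krt78 and Krt77, 84.8 and 51.5 CPM. Dsp in the same 3 clusters was 5004 and 5298, 6709 and 6254, and 9352 and 9599 CPM. A small spinous cluster (34 and 26 cells) had Dst at 1485 and 980 CPM, within the range of the basal clusters. Among basal clusters Dst was highest, at 2301 and 1595 CPM, in a cluster in which Plec was 949 and 1318 CPM. Plec was highest, at 1656 and 1793 CPM, in another, in which Dst was 1755 and 1412 CPM.

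In the hair follicle, the bulge and germ hold stem cells, the outer sheath is the outermost epithelial layer and the upper follicle differentiates in ways that resemble the epidermis. Dst was highest in bulge and germ cells, at 2050 and 1609 CPM, above its basal epidermal level. The outer sheath had 1536 and 1424 CPM and the upper follicle 361 and 339 CPM. Evpl went the other way, from 112 and 109 CPM in bulge and germ cells through 164 and 179 CPM in the outer sheath to 595 and 629 CPM in the upper follicle. Dst and Evpl thus ran in opposite directions through the follicle compartments, as they did from basal to spinous cells.

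Upper over bulge and germ cells, Evpl stood at 2.40 and 2.53, Ppl at 1.32 and 1.40, Dsp at 0.75 and 0.60, Macf1 at -0.44 and -0.42, Plec at -0.67 and -0.76 and Dst at -2.51 and -2.24. Evpl and Ppl were the 2 members called higher, where 8.37% of all genes were, and Dst the 1 called lower, where 19.0% were. Plec, Dsp and Macf1 did not run in order along the 3 compartments. Plec was highest in the outer sheath, at 939 and 1233 CPM, above 668 and 788 CPM in bulge and germ cells, whereas Dsp, at 3122 and 3201 CPM, and Macf1, at 302 and 341 CPM, were lowest there. Macf1 stood out in the companion layer, the cell sheet between outer and inner sheath, at 1306 and 1057 CPM, its highest level in any class or compartment, from only 61 and 12 cells. Over the follicle as a whole against basal cells 0 members were called higher or lower (26.4% and 3.91% of all genes), with Macf1 at 1.08 and 0.81 and Plec at -1.01 and -0.86 nearest to the rule.

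**Figure D3:**
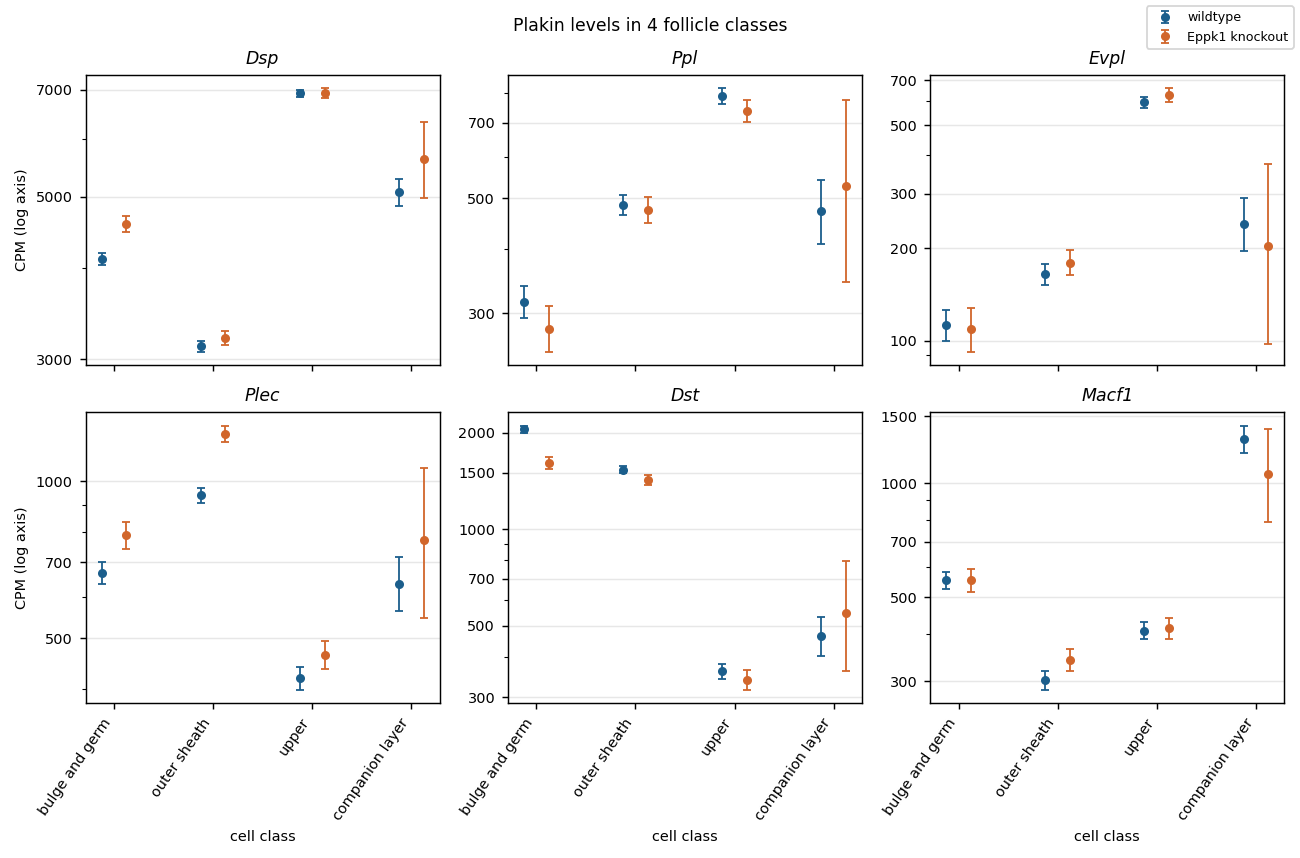
Level of each plakin in CPM (log axis, a scale of its own in each panel) in 4 compartments of the hair follicle, wildtype in blue and Eppk1 knockout in orange, with exact 95% counting intervals. Evpl and Ppl are higher in upper follicle than in bulge and germ, Dst is lower, from 2050 and 1609 to 361 and 339 CPM, Plec tops in the outer sheath and Macf1 in the companion layer.

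Sebaceous cells, the lipid-filled relatives of the keratinocytes, had less of every member than basal cells. All 6 were called lower, where 21.3% of all genes were, from Dst at -1.46 and -2.89 and Macf1 at -1.46 and -1.78 to Evpl at -4.06 and -4.16. Fibroblasts were likewise called lower for all 6 members (18.0% of all genes), least for Macf1 at -1.36 and -1.44 and Plec at -1.97 and -2.23.

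Dissociated skin sheds keratinocyte RNA that can be counted in other cells, so low plakin levels were set beside 10 abundant keratinocyte transcripts (Krt5, Krt14, Krt1, Krt10, Krt15, Krtdap, Sfn, Dmkn, Ly6d and Sbsn). Each was expressed as a percent of its own level in all keratinocytes. All but Sfn were also markers used to name the classes. In fibroblasts the 10 transcripts lay between 3.05% and 7.22% in wildtype and between 2.64% and 5.73% in knockout cells. Dsp, at 4.43% and 3.37%, and Evpl, at 4.24% and 3.16%, fell inside that range and cannot be told from background by it. Plec at 55.6% and 43.3%, Dst at 28.2% and 29.9%, Macf1 at 24.6% and 26.9% and Ppl at 16.2% and 15.3% were above all 10.

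The same split held in the other classes. Plec, Dst and Macf1 were above all 10 transcripts in fibroblasts, endothelial cells, macrophages and T cells of both libraries, though Dst in T cells cleared the highest by little, at 30.3% against 29.4% and at 20.8% against 20.0%. Dsp and Evpl were above all 10 in none of these classes, and Ppl only in fibroblasts and in knockout endothelial cells, at 23.2% against 14.6%. In T cells Plec was at 105% and 103% and Macf1 at 160% and 130% of the keratinocyte level. In macrophages Plec was at 52.6% and 28.8% and Macf1 at 36.1% and 36.7%.

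**Figure D4:**
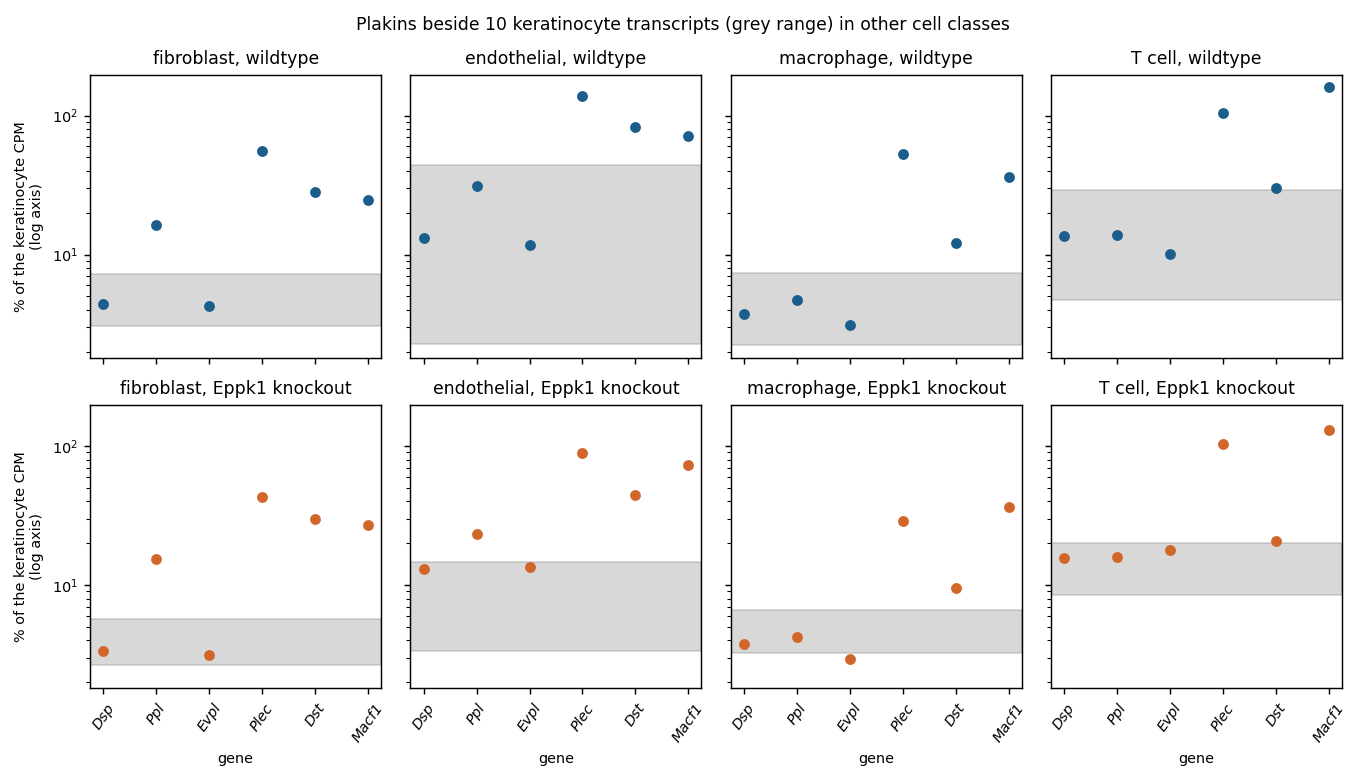
Plakin level in fibroblasts, endothelial cells, macrophages and T cells as percent of the level in all keratinocytes of the same library (vertical log axis), wildtype above and Eppk1 knockout underneath; the grey band is the range of 10 keratinocyte transcripts. Plec, Dst and Macf1 lie above the band in all 8 panels and Dsp and Evpl in none.

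Among these classes, fibroblasts served as the reference. Endothelial cells were called higher than fibroblasts for 4 members (14.9% of all genes) and lower for 0 (6.46%). These were Dsp at 1.57 and 1.97, Evpl at 1.52 and 2.13, Plec at 1.33 and 1.05 and Macf1 at 1.54 and 1.46. T cells were called higher for 3 (19.0%), Dsp at 1.63 and 2.22, Evpl at 1.27 and 2.52 and Macf1 at 2.70 and 2.27. Since Dsp and Evpl were inside the keratinocyte RNA range in these classes, their calls rest on levels that cannot be told from background, which leaves Plec and Macf1. Macrophages were called lower for 2 (21.1%), Ppl at -1.78 and -1.84 and Dst at -1.23 and -1.64. Within fibroblasts Plec differed between clusters, at 496 and 528 CPM in the collagen-rich cluster against 187 and 174 CPM in the cluster in which Dpt and Pi16 stood highest by fold over the other cell classes, while Macf1 was within 75.5 and 98.9 CPM in every fibroblast cluster.

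The structures that the members serve were followed through lists of partner genes, counted by the same 2-fold rule for granular over basal cells, by which 15.9% of all genes were called higher and 40.7% lower. All 8 hemidesmosome genes tested were called lower, with a median of -5.93 and -5.81, close to Dst and beyond Plec. Among them were the integrin chains Itga6 (-6.17 and -5.79) and Itgb4 (-5.70 and -5.32), which bind plectin and the basement membrane, and Col17a1 (-6.18 and -5.82), the BP180 collagen. Of 13 cornified envelope genes tested, 10 were called higher and 3 lower (Tgm3, S100a10 and S100a11). Involucrin (Ivl, 5.97 and 6.04) and the crosslinking enzyme Tgm1 (7.13 and 8.07) were far steeper than Ppl and Evpl. Itga6 and Col17a1 were also markers used to name basal clusters, and Lor, Flg, Hrnr and Cnfn markers used to name granular clusters. The direction of these genes was therefore largely set by the naming. The other genes of both lists were not naming markers.

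The layers are known to exchange their desmosomal cadherins. Of 12 desmosome genes tested, 3 were called higher (Dsg1a, Dsc1 and Dsc2), 4 lower (Dsg2, Dsg3, Dsc3 and Pkp4) and 5 neither, so that the shares higher and lower were not far from those of all genes. Dsc1 stood at 7.47 and 7.98 and Dsg3 at -6.45 and -5.98, while the plaque proteins Jup (-0.31 and -0.42) and Pkp1 (-0.47 and -0.53) were not called and leaned downward, where Dsp leaned upward. Of 13 microtubule and actin genes tested, 3 were called higher and 7 lower, again near the background, with Mapre2 at 2.37 and 2.59. Of 7 intermediate filament genes tested, 1 was called higher (Krt10) and 4 lower (Krt5, Krt14, Krt8 and Lmna). Krt5 and Krt14 were also markers used to name basal clusters, so their direction was largely set by the naming, and Krt1 and Krt10 were spinous markers.

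Likeness of pattern was measured as Pearson's r of log2(CPM + 10) over 18 points, the 9 classes in both libraries, among 11020 genes. The points share cells' depth and class composition, so r is a description. Dsp was most like Inava (0.98), Macc1, Pkp1, Jup and Lad1, of which Pkp1 and Jup are desmosomal plaque proteins. Evpl was most like Prrg4 (0.99), Macc1, Dsg1a, Bbox1 and Fam57a, and Ppl most like Ybx3 (0.98), Tead3, Sowahc, Slc19a2 and Fam57a. Dst was most like Rgs12 (0.98), Card10, Fgfr2, Aimp2 and Itgb4 (0.94), the last its hemidesmosomal partner. Plec was most like Bcor (0.94), Dnmt1, Myh9, Pxdc1 and Ankrd10, and Macf1 most like Dnajb1 (0.93), H2-Q7, Suco, Ppp1r12a and Oga. Between members r was 0.95 for Dsp with Evpl, 0.94 for Ppl with Evpl, 0.92 for Dsp with Ppl and 0.77 for Plec with Dst. It was only 0.088 for Dsp with Plec and 0.27 for Dsp with Dst.

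The remaining comparison asks whether other plakins differ where Eppk1 is disrupted. A member was called where log2 of Eppk1 knockout over wildtype CPM was at least 0.5 in size on at least 50 UMIs. Over all keratinocytes 0 of 6 members were called in either direction, where 2.47% of all genes were called higher and 4.86% lower. Dsp was 5320 and 5283 CPM (-0.01), Ppl 769 and 755 CPM (-0.03), Evpl 466 and 486 CPM (0.06) and Macf1 330 and 328 CPM (-0.01). Plec was 630 and 761 CPM, a ratio of 0.27 (interval 0.24 to 0.30), and Dst was 797 and 683 CPM, a ratio of -0.22 (-0.25 to -0.19). Both hemidesmosomal members thus deviated in opposite directions by more than counting error, while without a second mouse the spread between animals is not known.

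The opposite leanings of Plec and Dst recurred by layer. Plec was higher in knockout cells in basal (0.16), spinous (0.27), granular (0.09) and follicle (0.32) keratinocytes, and Dst was lower in the same 4 classes, at -0.25, -0.20, -0.21 and -0.20. In granular cells neither sign was stable, as Dst turned to 0.44 without the cell filters and to 0.06 with the mean over cells, and Plec to -0.05 with each cell gated on its own. Counting intervals held 0 for both in granular cells and for neither in the other 3. Of all genes with enough UMIs, 9.67% were higher in each of these 4 classes and 14.1% lower, so a shared sign is not rare, and Evpl (higher) and Ppl (lower) had it as well. In these classes 0 members were called. The shares of all genes called higher and lower were 4.13% and 3.72% in basal, 3.83% and 4.64% in spinous, 3.65% and 9.85% in granular and 2.50% and 5.45% in follicle keratinocytes.

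Smaller groups of keratinocytes gave wider ratios. Plec reached 0.39 (0.32 to 0.46) in the outer sheath, at 939 and 1233 CPM. In proliferating keratinocytes it was 855 and 1247 CPM, a ratio of 0.54 (0.41 to 0.68), whereas Dst there was 858 and 865 CPM. That Plec ratio passes the call rule, and the share of all genes passing was not computed for proliferating keratinocytes. Dst was -0.35 (-0.42 to -0.28) in bulge and germ cells. Spinous Dst illustrates how the makeup of a class enters a ratio: it was -0.20 for the class but between -0.36 and -0.72 in each of its 4 clusters, whose shares of cells differ between the libraries. Over the 33 clusters present in both libraries Dst was negative in 28, with an interval wholly under 0 in 20 and wholly above 0 in 0. Plec was positive in 20, with an interval above 0 in 15 and under 0 in 6. Of the other members, Ppl was negative in 24, with an interval under 0 in 8 and above 0 in 1. Dsp had an interval under 0 in 10 and above 0 in 11, Evpl in 3 and 6 and Macf1 in 2 and 8. All clusters come from the same pair of libraries and are not replicates, and the share of all genes with such counts was not computed.

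**Figure D5:**
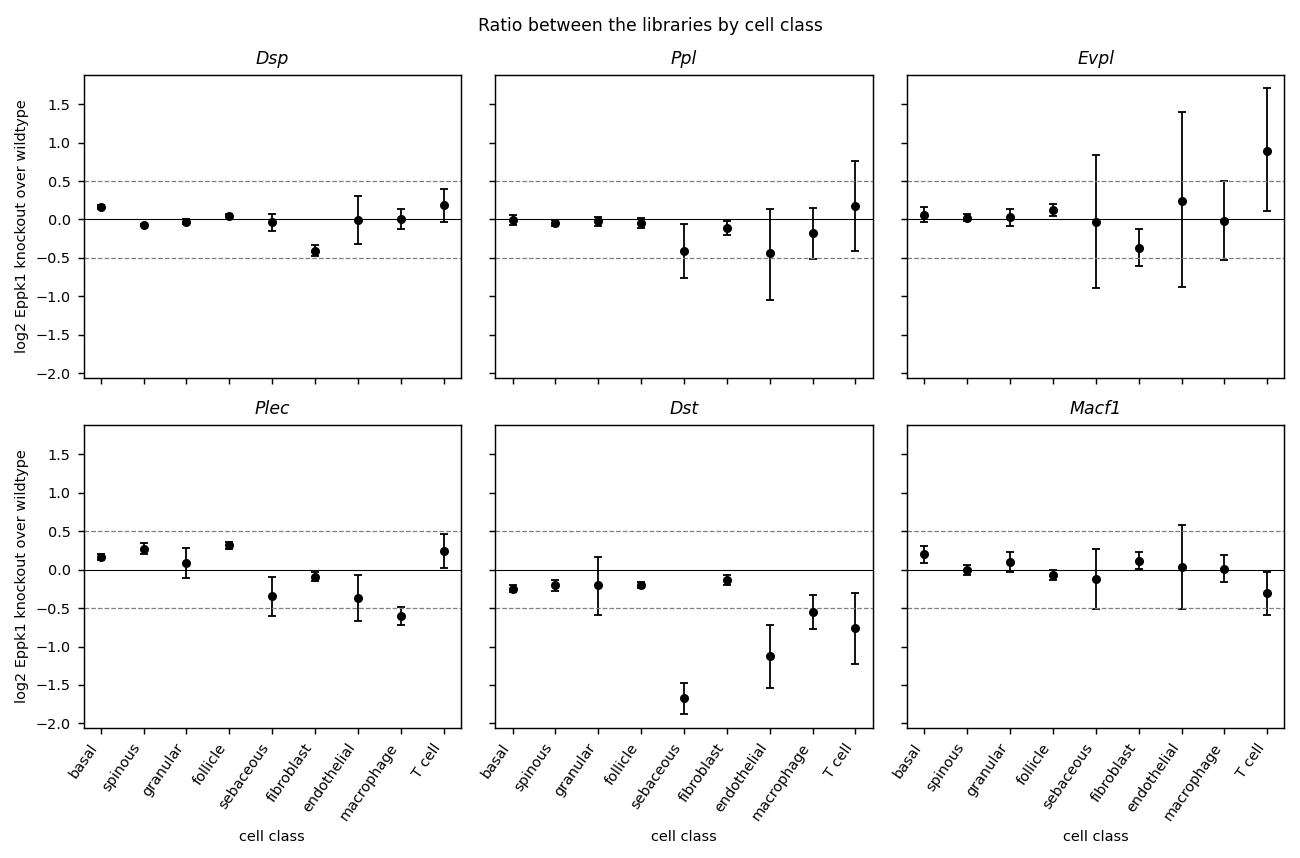
Log2 ratio of Eppk1 knockout over wildtype CPM (vertical axis) of each plakin in the 9 cell classes with exact 95% counting intervals; dashed lines mark the call rule of 0.5 in size. Dst is negative in all 9 classes (in granular cells not under every alternative) and passes the rule in sebaceous, endothelial, macrophage and T cells. Plec passes it in macrophages, and Dsp, Ppl and Macf1 pass it in none of the 9 classes in the main result shown. Under alternatives some ratios go past 0.5 in size. Examples are Dsp in fibroblasts (-1.04 without the highest doublet scores) and Ppl in macrophages (-0.996 without integration).

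In the sebaceous, fibroblast, endothelial, macrophage and T cell classes 5 pairs of member and class were called lower and 1 higher. Dst was lower in sebaceous cells, at 509 and 159 CPM, a ratio of -1.67 (-1.88 to -1.47), where 23.0% of all genes were called lower and 6.37% higher. The sebaceous comparison was uneven in other respects. Summed fibroblast markers there were 1399 and 126 CPM, 6 of the 6 with enough UMIs being lower by the rule, with 0 and 1 of 8 markers at 0. Summed basal markers were 6679 and 5840 CPM, 7 of 8 lower by the rule, spinous markers were 3771 and 6123 CPM, and median depth was 6167 and 12926 UMIs. The part of these differences in the Dst ratio was not tested. A further 55 cells of the library labelled Eppk1 knockout had sebaceous markers, formed a cluster of 1 library and stayed unnamed, with Dst at 375 and Dsp at 3478 CPM. Eppk1 in them was 1507 CPM, against 732 and 32.1 CPM in the sebaceous class, so the targeted gene went against their label. With them the sebaceous Dst ratio was -1.56 and Evpl became 1.05.

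Dst was also lower in endothelial cells, at 658 and 302 CPM, a ratio of -1.12 (-1.54 to -0.72) from 168 and 74 UMIs, with 14.4% of all genes called lower and 15.8% higher. Basal markers in that class summed to 7596 and 3277 CPM, 6 of 8 lower by the rule and 0 at 0, while endothelial markers were 3816 and 4330 CPM. In the 35 and 23 cells that carried endothelial markers at finer clustering, an alternative added after the values were seen, Dst was 702 and 329 CPM, a ratio of -1.09 (-1.60 to -0.61). There Dsp became 506 and 922 CPM, a ratio of 0.86, against -0.01 for the whole class. The Dst ratio was thus about as large in the finer cells, and the part of basal keratinocyte RNA in it was not tested. With each cell gated on its own by its markers the ratio was -0.35 and the call ended.

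In macrophages Plec was 332 and 219 CPM, a ratio of -0.60 (-0.72 to -0.48), and Dst 95.9 and 65.5 CPM, a ratio of -0.55 (-0.77 to -0.33), with 15.2% of all genes called lower and 7.78% higher. Both macrophage clusters showed both: Plec was 444 and 279 CPM in the one led by Ccl8 and Cd163, and 258 and 91.6 CPM in the one led by Fcna and Folr2, and Dst was 163 and 87.5 and 51.4 and 19.1 CPM. The pairing of Fcna-led cells across the libraries depended on integration. Without it a cluster led by Fcna held 233 wildtype and 3 knockout cells. The part of unlike cells in the ratios of the Fcna cluster was not tested. Other cell markers also moved in this class. Dendritic markers summed to 11956 and 30497 CPM, 4 of the 6 with enough UMIs higher by the rule, basal markers to 2431 and 1573 CPM and macrophage markers to 23073 and 18610 CPM, and their part in the Plec and Dst ratios was not tested. The Dst call ended under 4 alternatives, at -0.31 with each cell gated on its own, -0.38 without shared droplet barcodes, -0.44 with TMM scaling and -0.45 without the 100 most abundant genes. The Plec call ended under the last 2 of these, at -0.49 and -0.50.

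In T cells Dst was 241 and 142 CPM, a ratio of -0.75 (-1.23 to -0.30), with 10.1% of all genes called lower, and Evpl was 46.7 and 86.9 CPM, a ratio of 0.89 (0.11 to 1.71) from 24 and 36 UMIs, with 9.64% called higher. Basal markers there summed to 3640 and 1917 CPM, 6 of 8 lower by the rule, and spinous markers to 1894 and 3457 CPM, 6 of the 7 with enough UMIs higher. Fibroblast markers summed to 8565 and 678 CPM. Evpl in T cells lay inside the range of the keratinocyte transcripts above, and Dst exceeded the highest of them by little. The part of the basal, spinous and fibroblast markers in the 2 ratios was not tested. Evpl turned to -0.40 without the cells of highest doublet score, and Dst was -0.45 with each cell gated on its own.

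Taking the 9 classes together, Dst was lower in knockout cells in each, which held for 2.17% of the 1755 genes with enough UMIs in all 9, while 0 members were higher in each (0.342%). The interval excluded 0 in 8 of the 9, all but granular cells, where its sign turned under 2 alternatives. In fibroblasts 0 members were called (8.56% of all genes higher, 6.84% lower). The nearest were Dsp, at 236 and 178 CPM, a ratio of -0.41 (-0.48 to -0.34), and Evpl, at 19.8 and 15.3 CPM, a ratio of -0.37 (-0.61 to -0.12). Both lay inside the keratinocyte RNA range there. Without the cells of highest doublet score Dsp was -1.04 and Evpl -0.93, both beyond 0.5 in size. Of 12 cornified envelope genes in fibroblasts 0 were called higher and 7 lower, with a median of -0.57 against 0.05 for all genes. Of 11 desmosome genes there 1 was positive and 10 negative, of 8 hemidesmosome genes 0 and 8, and of 13 microtubule and actin genes 7 and 6. Keratinocyte transcripts varied in fibroblasts: Krt5 was -0.22, Krt14 -0.26, Krt1 -0.001, Krt10 0.19 and Flg 0.23. In keratinocytes themselves these were 0.17, 0.07, 0.43, 0.05 and 0.76. Relative to the keratinocyte level, the median of the 10 transcripts above was 5.52% in wildtype and 4.38% in knockout fibroblasts. The part of keratinocyte RNA in the Dsp and Evpl ratios was not tested.

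Partner genes in all keratinocytes were counted by the call rule between the libraries, by which 2.47% of all genes were called higher and 4.86% lower. At these shares 0 calls in a list of this size is not rare. Of 13 desmosome genes 0 were called in either direction, between Dsg2 at 0.22 and Pkp2 at -0.41, and of 8 hemidesmosome genes 0, the highest being Itga6 at 0.15. Of 13 microtubule and actin genes 0 were called, between Clasp2 at 0.25 and Mapre2 at -0.31. Of 14 cornified envelope genes 1 was called higher, filaggrin at 2857 and 4832 CPM (0.76), and 2 lower, Sprr2a3 at 1.15 and 0.625 CPM (-0.85) and Tgm3 (-0.69), which was at 4.33 CPM in the knockout. Of 8 intermediate filament genes 1 was called higher, Krt8 at 4.16 and 8.46 CPM (1.02), and 1 lower, Vim at 28.2 and 19.4 CPM (-0.54). The hemidesmosome list, with a median of 0.07 against -0.02 for all genes, did not share the sign of Dst as a whole.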

How the data were processed

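Both dorsal-skin libraries were made by the authors with the 10x Genomics Flex mouse probe kit. The deposited values are raw UMI counts per gene and cell, from Cell Ranger 8.0.1 and the mm10 (GRCm38) reference. Mitochondrial genes (13) were dropped. Kept cells had a total of 200 to 45000 UMIs, between 100 and 7500 genes detected, and no more than 10% of UMIs from mitochondria. Seurat 5.3.0 in R 4.3.3 (2000 variable genes, 50 components, RPCA integration) clustered all cells at resolution 0.5 and epithelial cells at 0.8. Each cluster took the class whose markers scored highest on average, and at least 3 of them needed a UMI in 25% of its cells. Epithelial clusters led by markers of another lineage stayed unnamed, as did clusters with more leading genes from the markers of another class. Shallow clusters without their markers among the leading genes also stayed unnamed. That naming rule was set after the clusters were seen. Clusters with over 95% of cells from 1 library stayed unnamed. Doublets were not removed in the main result: Scrublet (Python 3.11.15, scanpy 1.11.5) marked 2 wildtype and 217 knockout cells, and leaving out the 5% highest scores of each library is an alternative. Droplet barcodes occurred in both libraries 1211 times. UMIs were summed per class and library. With 1 library per genotype no test was run. The script was tested on simulated data. Every column was used (0 left out). Members, lists of partner genes and markers were chosen with earlier results of these data known. Named genes were the 6 members, Eppk1, the 5 genes most like each member, and from each partner list the highest and lowest; others were chosen after their values were seen. Partner lists covered desmosome, hemidesmosome, cornified envelope, microtubule and actin, and intermediate filament genes. Promoters are from RefSeq (GRCm38.p6).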

Additional observations from a re-analysis of the deposited data

How the results depend on the processing

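With 1 library per genotype, calls rest on size alone, and depth limits Evpl outside keratinocytes, where intervals of the ratio reach 1.71. No paired analysis was possible because the labels give no replicate numbers and each group is 1 library, and for the same reason no library could be left out. Of 14 alternatives, 11 were planned and 3 (the finer endothelial cluster, the 1-library sebaceous cluster included, the smaller granular cluster left out) were added after seeing the data. The 2 members lower in granular than basal cells stayed 2 under each. Of the 12 granular over basal steps (6 members, 2 libraries) 5 changed sign, all without the cell filters, for Evpl, Macf1 and knockout Dsp. The number higher was 0, and became 1 without integration and with the mean over cells, 3 with TMM scaling, and 2 without the 100 most abundant genes or without the smaller granular cluster. Pairs of member and class higher in knockout cells numbered 1, and became 0 with each cell gated on its own or no cell filter, and 2 with resolution 1 and 1.2, without integration, with thinning to 2000 UMIs, with the finer endothelial cluster or with the 1-library sebaceous cluster. Pairs lower numbered 5, and became 2 with each cell gated on its own, 9 without the highest doublet scores, 13 with the mean over cells, and 3 with TMM scaling or without the 100 most abundant genes. Evpl in T cells turned to -0.40 without the highest doublet scores. Of 750 ratios under alternatives 638 stayed within the counting interval of the main value, 111 left it and 1 more was classed as reversed. Of the 54 ratios 28 kept their sign throughout and 26 changed it under at least 1 alternative. The cause of each shift was not tested. Dst in sebaceous cells ranged from -1.68 to -1.21, in endothelial cells from -1.24 to -0.35, in macrophages from -1.28 to -0.31 and in T cells from -1.20 to -0.45, and Plec in macrophages from -0.98 to -0.49.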

Other observations

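Cells outside the 9 classes gave further plakin levels, as wildtype and then Eppk1 knockout, and were set beside the same 10 keratinocyte transcripts. Melanocyte-like cells (28 and 14) had Dst at 1339 and 860 CPM, from 128 UMIs in all. That was 168% and 126% of the keratinocyte level, where the highest of the 10 transcripts reached 61.8% and 4.14%. Plec there was 657 and 313 CPM. Their Dsp, 998 CPM in wildtype cells and 0 of the 25579 UMIs in knockout cells, was not above all 10 transcripts. Cells with Langerhans markers (146 and 112), which live among keratinocytes, had Dst at 434 and 373 CPM, at 54.4% and 54.6% of the keratinocyte level against a highest transcript of 26.2% and 20.4%. In the other dendritic cluster (190 and 238 cells) Dst was 144 and 108 CPM, under the highest transcript in wildtype cells (18.1% against 23.1%) and above it in knockout cells (15.7% against 6.23%). Dsp was within the range of the 10 transcripts in both, at 624 and 419 CPM and at 360 and 217 CPM. Plec, at 482 and 550 CPM in the former and 595 and 428 CPM in the latter, was above all 10, as it was in mast-like cells (53 and 72) at 594 and 839 CPM. By the call rule between the libraries, both dendritic clusters together were lower in knockout cells for Dsp (-0.77), Ppl (-0.84), Evpl (-0.505, interval -1.06 to 0.04) and Dst (-0.53). Plec (-0.23) and Macf1 (-0.09) did not pass there. Ppl and Evpl, like Dsp, were within the range of the 10 transcripts in both dendritic clusters and both libraries. The median of these transcripts was 18.3% and 8.13% in the Langerhans cluster and 5.89% and 4.67% in the other. The part of keratinocyte RNA in these ratios was not tested. In mast-like cells Dsp (0.55) was higher and Macf1 (-0.76) lower. Dsp there, at 9.15% and 13.5% of the keratinocyte level, was within the range of the 10 transcripts. Their median in mast-like cells was 5.39% and 12.3%, and the part of keratinocyte RNA in the Dsp ratio was not tested. In melanocyte-like cells Dsp, Plec and Dst passed as lower. The intervals of Plec (-2.36 to 0.01) and Dst (-1.37 to 0.03) held 0, from 8 and 22 knockout UMIs. The share of all genes passing was not computed for these cells.

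Cells above the cap of 45000 UMIs, left out of the main result, held 171 wildtype and 117 knockout cells that gated as granular. Their Dsp was 8221 and 8063 CPM, Ppl 1231 and 1228 CPM, Evpl 765 and 762 CPM, Plec 198 and 226 CPM and Dst 63.9 and 53.5 CPM.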
